A study of Homo sapiens with 6 samples.

Results

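The 39 genes described here encode aminoacyl-tRNA synthetases and the proteins that hold some of them together, and were taken by name from a table of 27381 genes measured by RNA sequencing in DU145, a human prostate carcinoma cell line. By the rule that chose them, 20 encode cytosolic enzymes, 16 encode mitochondrial enzymes (symbols ending in 2) and 3 encode the scaffold proteins AIMP1, AIMP2 and EEF1E1. The labels give 6 libraries, 2 each of cells that received Cas9 with a scrambled guide (Scr), of cells with CD24 knocked out (CD24 KO) and of cells with RCC2 knocked out (RCC2 KO). According to the paper, the knockouts were clones grown from GFP-sorted cells after transfection of Cas9 and guide RNAs, and the clone behind each library is not given in the sources used here. The comparisons ask how each knockout differs from the scrambled control and how the knockouts differ from each other.

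The authors deposited FPKM, which counts fragments per length of transcript and per number of fragments mapped, so levels may be compared between genes. The table holds 1 value per gene and condition, and the RCC2 KO column carries a name that is also the whole label of 1 library, so that it holds either 1 library or both. Neither a spread nor a p-value can therefore be given, no difference below has a replicate check, and the depth behind the values is unknown. Changes are differences of log2(FPKM + 1), which understates the change of genes with low values, among the 12822 genes with at least 1 FPKM in at least 1 column. A gene was counted as called at a difference of at least 1.5-fold on this scale. In bulk RNA, fewer cells with a transcript and less of it per cell cannot be told apart.

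The labels were checked on the targeted RNAs. CD24 stood at 93.2 FPKM in Scr, 309 in the CD24 KO column and 214 in the RCC2 KO column, and RCC2 at 37.8, 14.2 and 41.8 FPKM. Neither targeted RNA was thus lower in the column of its own knockout. CD24 had a log2 change of 1.72 in CD24 KO, and RCC2 had one of 0.14 in RCC2 KO, under 1.5-fold. In the column of the other knockout, CD24 was at 1.19 and RCC2 at -1.36. The paper reports checking the DU145 clones by flow cytometry, Western blotting and Sanger sequencing. RNA alone does not show whether a gene was edited. Columns are called by their label throughout, with every direction resting on those labels. The epithelial markers EPCAM, KRT8, KRT18, KRT19 and CDH1 lay between 23.7 and 348 FPKM in every column. KLK3, PTPRC and CD3E were listed at 0, and COL1A1, COL3A1, PDGFRB and CD14 stayed under 1 FPKM. KRT8 and KRT18 were lower in the libraries labelled CD24 KO, with log2 changes of -1.17 and -1.05, and CDH1 was higher, at 0.89.

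Aminoacyl-tRNA synthetases join each amino acid to its transfer RNA before the ribosome can use it. Human cells keep separate enzyme sets for the cytosol and for mitochondria, both encoded in the nucleus, although GARS and KARS also serve mitochondria and EPRS alone carries both a glutamyl and a prolyl enzyme. When charged tRNA runs short, the kinase GCN2 (EIF2AK4) phosphorylates eIF2, translation of the transcription factor ATF4 increases, and ATF4 raises genes for amino acid synthesis, amino acid transport and several cytosolic synthetases. The symbols are those of the table. In current nomenclature most of the cytosolic enzymes carry a final 1, such as AARS1.

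In Scr, the cytosolic enzymes were among the most abundant messages and the mitochondrial enzymes were of middle abundance. The median level was 95.9 FPKM over the 19 cytosolic enzymes compared and 10.9 FPKM over the 15 mitochondrial ones. TARS, the threonyl enzyme, was the highest member at 305 FPKM, above 98.8% of the genes compared. AARS and GARS, the alanyl and glycyl enzymes, followed at 212 and 210 FPKM, values that differ by too little to be ordered without replicates. CARS, for cysteine, was the lowest cytosolic enzyme with a value, at 27.5 FPKM. Among mitochondrial enzymes IARS2, for isoleucine, stood apart at 84.9 FPKM, while PARS2, for proline, and MARS2, for methionine, were at 3.33 and 4.66 FPKM. The scaffold proteins AIMP1, AIMP2 and EEF1E1, which assemble part of the cytosolic enzymes into the multi-synthetase complex, were at 33.5, 61.5 and 67.4 FPKM.

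**Figure D1:**
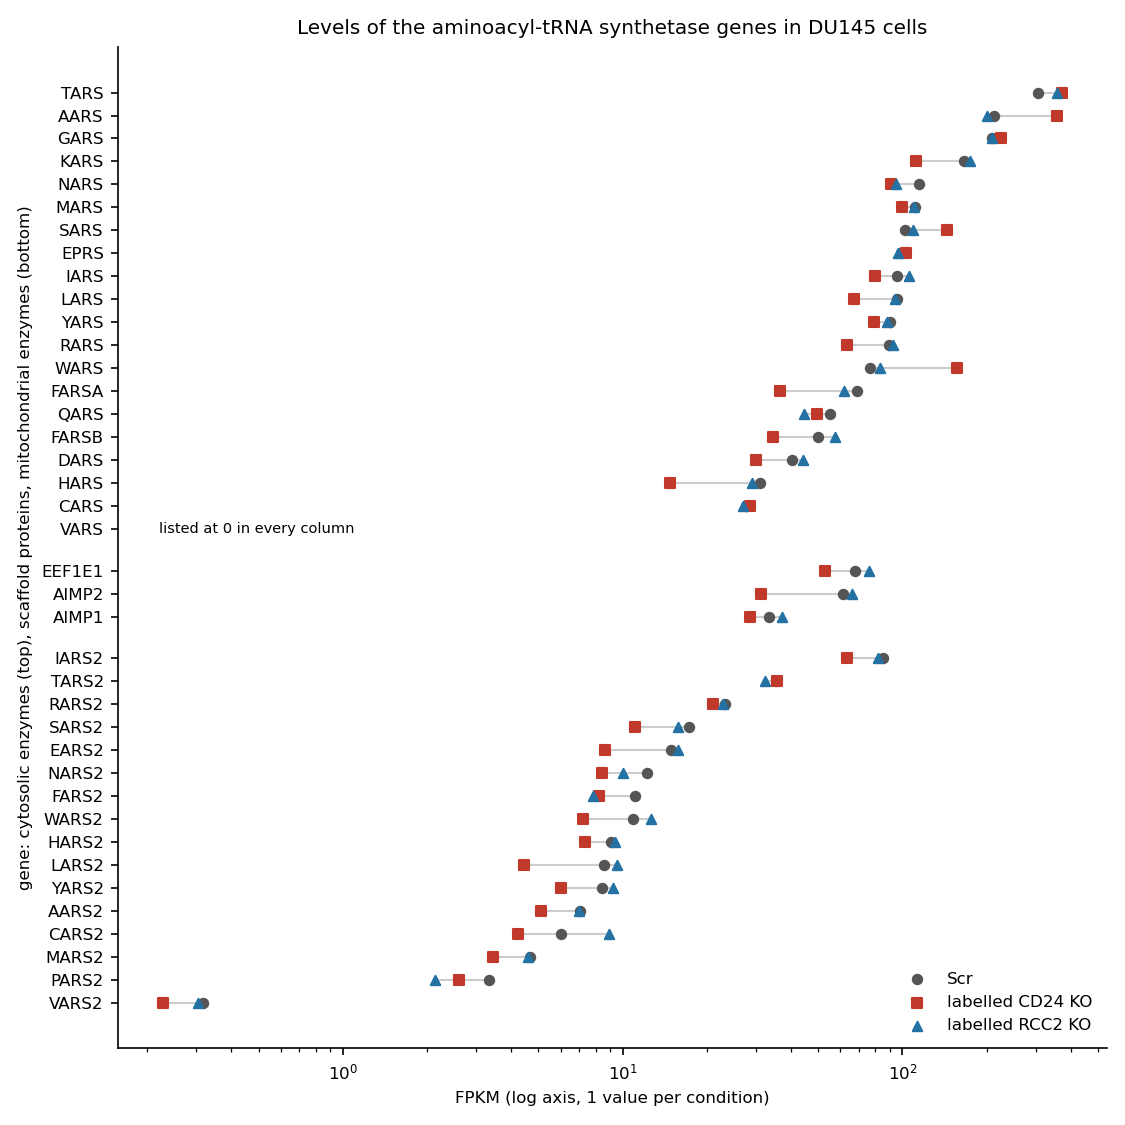
FPKM of the 39 genes on a log axis, 1 point per condition (circle, Scr; square, labelled CD24 KO; triangle, labelled RCC2 KO), ordered by the Scr level within the cytosolic, scaffold and mitochondrial groups. Cytosolic enzymes lie mostly to the right of mitochondrial ones, the CD24 KO square is displaced from Scr more often than the RCC2 KO triangle, and VARS has no point.

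VARS and VARS2, the valyl enzymes of the cytosol and of mitochondria, could not be compared. VARS was listed at 0 in every column, and VARS2 was at 0.317 FPKM in Scr, 0.228 in CD24 KO and 0.303 in RCC2 KO. Both lie on chromosome 6, and the stretch between them was examined after these values had been seen. Of 47 protein-coding symbols from VARS2 to VARS, 26 (55.3%) were listed at 0 in every column, against 17.7% of the 18890 protein-coding symbols in the table. The 0 for VARS, an enzyme that every dividing cell uses, is given as listed, and it is not known whether its RNA was absent. Whether the position sets these zeros was not tested.

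In the libraries labelled CD24 KO, the mitochondrial enzymes were lower than in Scr nearly throughout, whereas the cytosolic enzymes went both ways. Of the 15 mitochondrial enzymes compared, 14 were lower and only TARS2, at a log2 change of 0.02, was not. Over all genes compared, 52.9% were lower. The median log2 change was -0.41 for the mitochondrial enzymes, -0.19 for the cytosolic enzymes and -0.03 for all genes compared. The difference of the group medians, cytosolic minus mitochondrial, was 0.23. With a pseudocount of 5 the difference was 0.10. Under quantile normalization the cytosolic median was -0.0093, the mitochondrial median -0.43 and the difference 0.42. Members are not replicates of a condition, and no test was made of these medians.

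Of 37 members, 2 were higher and 6 lower than in Scr by 1.5-fold or more in the CD24 KO column. Over the whole table, 9.55% of genes were called higher and 11.6% lower, so the number called is near the background. At 2-fold, WARS was higher and HARS lower, where 2.67% and 3.03% of all genes were called. With a pseudocount of 5 neither passed 2-fold, and under quantile normalization or median centring HARS did not. The members nearest the minimum were AARS inside and SARS outside it among the higher ones, and SARS2 inside, at a log2 size of 0.60, and KARS outside, at 0.56, among the lower ones.

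WARS, the tryptophanyl enzyme, was at 76.6 FPKM in Scr, 157 in CD24 KO and 83.0 in RCC2 KO. The CD24 KO value was 2.05 times that of Scr, a log2 change of 1.02. AARS was at 212 FPKM in Scr, 357 in CD24 KO and 200 in RCC2 KO, a log2 change of 0.75 in CD24 KO. Both therefore had their high value in the CD24 KO column and near-equal values in the other columns. SARS, for serine, had the same pattern at 102, 145 and 109 FPKM but stayed under the minimum, at 0.50. Under quantile normalization SARS passed the minimum, at 0.73. TARS was at 305, 372 and 358 FPKM, so that both knockouts lay above Scr, by 0.29 and 0.23. GARS, EPRS and CARS had log2 changes of 0.10, 0.06 and 0.05 in CD24 KO, the smallest among the cytosolic enzymes.

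HARS, the histidyl enzyme, was at 31.1 FPKM in Scr, 14.8 in CD24 KO and 28.9 in RCC2 KO. Its log2 change of -1.02 in CD24 KO was the lowest of all members. FARSA and FARSB are the paired subunits of the phenylalanyl enzyme. FARSA was at 68.6, 36.6 and 61.8 FPKM, a log2 change of -0.89 in CD24 KO, and FARSB was at 50.1, 34.5 and 57.4 FPKM, a change of -0.53. The subunits of 1 enzyme thus both had their lowest value in the CD24 KO column. KARS, RARS, LARS and DARS, for lysine, arginine, leucine and aspartate, had log2 changes of -0.56, -0.49, -0.51 and -0.41 there, each under the minimum. NARS, IARS, YARS, QARS and MARS lay between -0.33 and -0.15, and MARS changed sign with quantile normalization.

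HARS and HARS2 share a position in the table, on chromosome 5 from 140053489 to 140078903, and are transcribed away from each other. Their start sites in RefSeq are separated by 84 bases, which are shown because a short stretch lies before both genes while their changes differed. HARS2 was at 9.12, 7.34 and 9.37 FPKM, a log2 change of -0.28 in CD24 KO against -1.02 for HARS. The stretch at chr5:140691371-140691454 (GRCh38.p14, plus strand, read toward HARS2) has 59.5% G and C and holds none of the 3 motifs searched below.
HARS to HARS2: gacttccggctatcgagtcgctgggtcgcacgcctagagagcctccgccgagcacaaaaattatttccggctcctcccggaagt

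Among the 15 mitochondrial enzymes compared, LARS2, EARS2 and SARS2 passed the minimum in CD24 KO, where 11.6% of all genes were called lower. LARS2, for leucine, was at 8.61 FPKM in Scr, 4.46 in CD24 KO and 9.58 in RCC2 KO, a log2 change of -0.82. EARS2, for glutamate, was at 14.9, 8.65 and 15.8 FPKM, a change of -0.72. SARS2 was at 17.3, 11.1 and 15.8 FPKM, a change of -0.60, and it shares its position with MRPS12, a mitochondrial ribosomal protein gene. In these 3 genes the CD24 KO value was the lowest of the 3 columns. WARS2, NARS2, YARS2, CARS2, IARS2 and AARS2 lay between -0.54 and -0.40, FARS2, MARS2, HARS2 and PARS2 between -0.38 and -0.27, and RARS2 at -0.14. SARS2 was under the minimum with median centring, quantile normalization and the GC and length correction, and with a pseudocount of 5 none of the 15 passed it.

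The scaffold proteins were also lower in the CD24 KO column. AIMP2 was at 61.5 FPKM in Scr, 31.3 in CD24 KO and 65.9 in RCC2 KO, a log2 change of -0.95. EEF1E1 and AIMP1 were at -0.34 and -0.23, under the minimum. AIMP2 shares its position with EIF2AK1, the haem-regulated eIF2 kinase, which was at 63.1, 101 and 60.8 FPKM, a log2 change of 0.67, in the opposite direction. Of the 8 enzymes that sit in the multi-synthetase complex with these proteins, 7 were lower, with a median of -0.34 and none called, whereas the 11 free cytosolic enzymes compared had a median of 0.05. Under quantile normalization 6 of the 8 were lower and the medians were -0.18 and 0.17, and with the GC and length correction 1 of the 8 was called lower. By structural class, the median was -0.15 over 9 class I enzymes and -0.37 over 10 class II enzymes, or -0.0088 and -0.20 under quantile normalization.

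**Figure D2:**
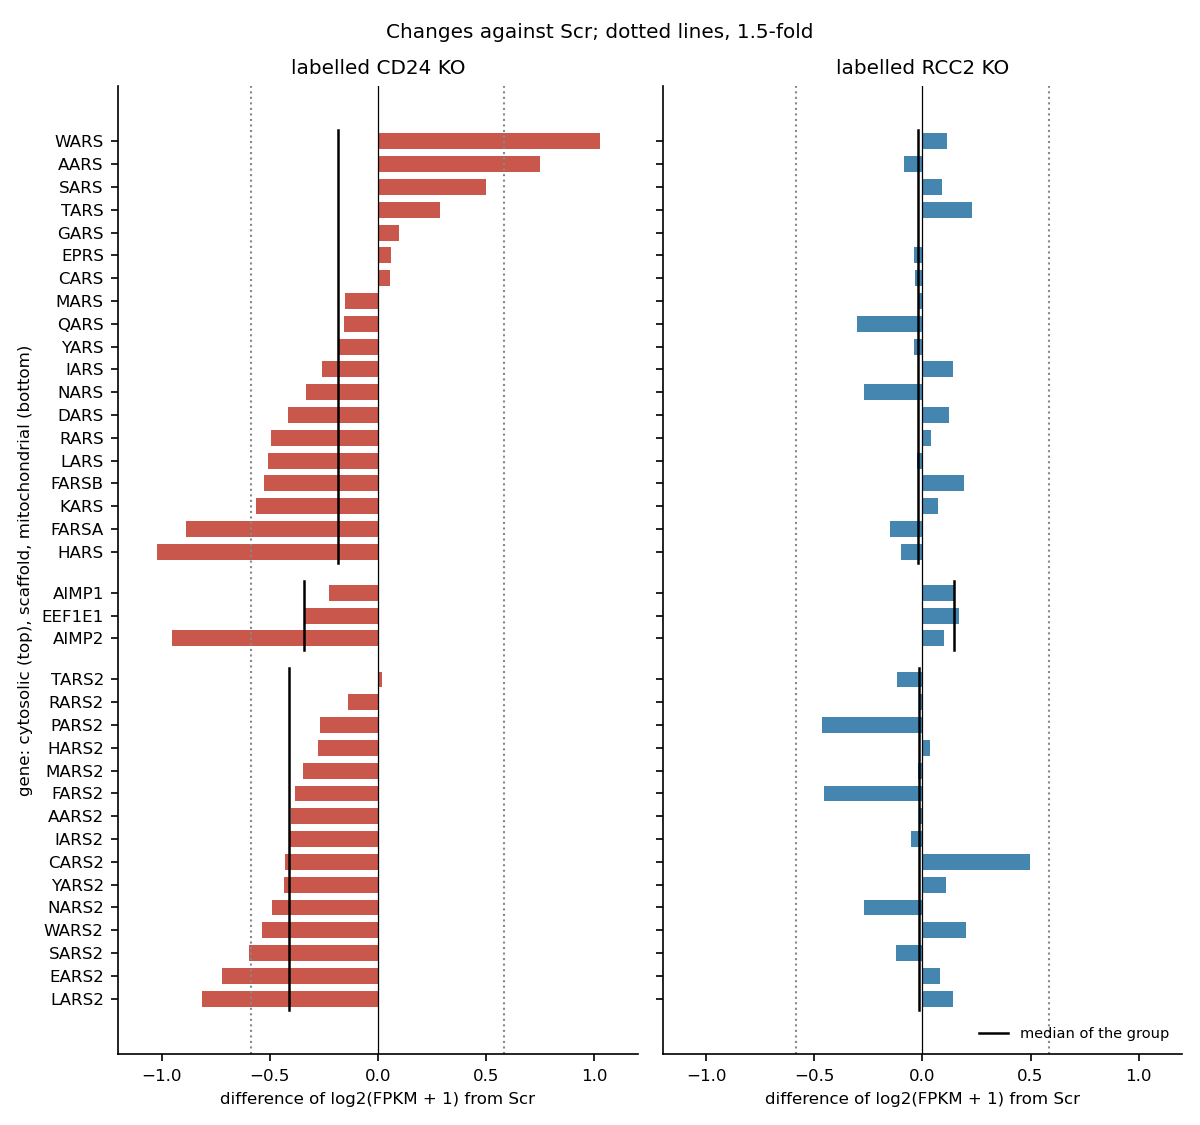
Difference of log2(FPKM + 1) from Scr for the 37 members with values, with CD24 KO on the left and RCC2 KO on the right and genes in the same order; black lines are group medians and dotted lines mark 1.5-fold. On the left 14 of 15 mitochondrial bars point down and the cytosolic bars run from -1.02 to 1.02, and on the right no bar reaches a dotted line.

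In the libraries labelled RCC2 KO, none of the 37 members differed from Scr by 1.5-fold, where 1.45% of all genes were called higher and 3.82% lower. The medians were -0.02 for the cytosolic enzymes, -0.02 for the mitochondrial enzymes and -0.0036 for all genes compared, and the mitochondrial one turned to 0.018 under quantile normalization. The 3 members farthest from Scr were mitochondrial. CARS2 was at 6.03 FPKM in Scr, 4.22 in CD24 KO and 8.93 in RCC2 KO, the largest increase in RCC2 KO at a log2 change of 0.50. PARS2 was at 3.33, 2.59 and 2.14 FPKM and FARS2, for phenylalanine, at 11.1, 8.25 and 7.82 FPKM, with changes of -0.47 and -0.45 in RCC2 KO. With a pseudocount of 0.1, PARS2 passed the minimum. Cytosolic enzymes lay between -0.30 (QARS, for glutamine) and 0.23 (TARS).
MARS, the methionyl enzyme, is among the genes that the paper predicted as possible off-targets of the RCC2 guides. The paper examined those genes by gel electrophoresis and reports finding no such effects. MARS was at 111 FPKM in Scr, 99.8 in CD24 KO and 110 in RCC2 KO, a log2 change of -0.02 in RCC2 KO. An RNA level does not tell whether a gene was edited. MARS shares its position on chromosome 12 with DDIT3, a transcription factor of the stress response, which was at 24.8, 61.5 and 27.7 FPKM.

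Compared directly, 26 of 37 members had a larger value in the RCC2 KO column than in that of CD24 KO, where 51.6% of all genes did. Past 1.5-fold were 9 members that were higher and 2 that were lower, where 13.8% and 14.1% of all genes were called. This comparison uses the same CD24 KO values as above. The higher members were AIMP2, LARS2, CARS2, HARS, EARS2, WARS2, FARSA, FARSB and KARS, with log2 differences from 1.05 down to 0.64, and the lower ones were WARS at -0.91 and AARS at -0.83. Under quantile normalization FARSA, FARSB and KARS did not pass, while SARS passed as lower at -0.63. With a pseudocount of 5 WARS2 did not pass. At 2-fold, AIMP2 was higher and no member lower, where 4.02% and 4.3% of all genes were called. This depended on the setting, since LARS2 and CARS2 also passed 2-fold with a pseudocount of 0.1, while under quantile normalization AIMP2 was at 0.88 and WARS at -1.13. The mitochondrial median was 0.36. The cytosolic median was 0.14 and turned to -0.072 under quantile normalization.

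The ratio of a cytosolic enzyme to the mitochondrial enzyme for the same amino acid was taken in 16 of 17 pairs, all but the valyl pair. In each column the cytosolic enzyme was the higher of all 16 pairs, with a median ratio of FPKM of 6.85 in Scr, 11.4 in CD24 KO and 7.62 in RCC2 KO. In CD24 KO the ratio lay above that in Scr in 12 pairs. For tryptophan, WARS to WARS2, it was 7.04 in Scr, 21.8 in CD24 KO and 6.55 in RCC2 KO. For alanine it was 30.1, 70.0 and 28.6, and for serine 5.92, 13.0 and 6.91. In these 3 pairs the cytosolic enzyme was higher and the mitochondrial enzyme lower in CD24 KO. The ratio was lower than in Scr for histidine (3.41, 2.02 and 3.08), arginine and both phenylalanyl subunits. Isoleucine had the most equal pair, at 1.13, 1.26 and 1.29. Summed FPKM of the cytosolic enzymes was 2040, 2144 and 2077, and that of the mitochondrial enzymes 257, 197 and 250.3. The sum of the mitochondrial set was thus lower in CD24 KO and that of the cytosolic set was not. All genes of the table summed to 451272, 388764 and 447005 FPKM, so the total of the CD24 KO column was lower too. Single genes there had log2 changes as far as -14.7 (RNR2) and 13.3 (VTRNA1-3), while the median over all genes compared was -0.03. How much of the lower total came from such single genes was not tested. The sums of the 2 sets were not scaled to these totals.

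**Figure D3:**
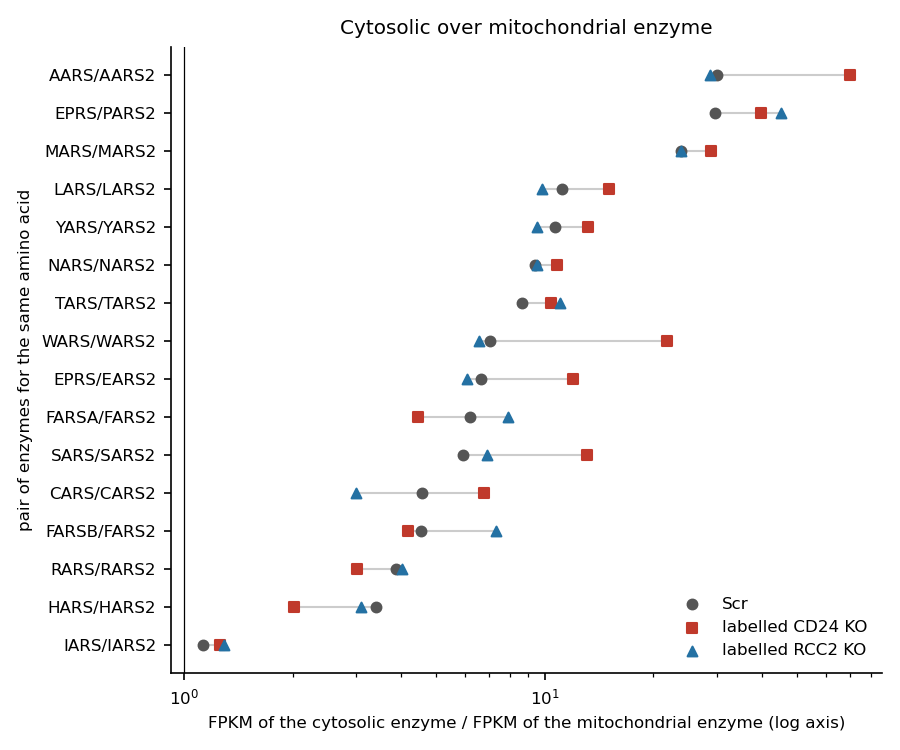
FPKM of the cytosolic enzyme divided by that of the mitochondrial enzyme for the same amino acid, on a log axis, in Scr (circle) and the libraries labelled CD24 KO (square) and RCC2 KO (triangle), for the 16 pairs with values; EPRS and FARS2 each stand in 2 pairs. Tryptophan, alanine and serine have the CD24 KO square far to the right of the other points, and histidine has it to the left.

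The cytosolic enzymes were split, from general knowledge of the literature, into 12 that respond to ATF4 and 8 others. In the libraries labelled CD24 KO, 7 of the 12 were higher and 5 lower, with a median log2 change of 0.06, or 8 and 4 with a median of 0.23 under quantile normalization. All 7 others with a value (DARS, FARSA, FARSB, HARS, KARS, QARS and RARS) were lower, with a median of -0.53, or -0.34 under quantile normalization. The called members of the first set were WARS and AARS, both higher, and those of the second HARS and FARSA, both lower. Over all genes compared, 9.55% were called higher, 11.6% were called lower and 52.9% were lower. The split was made with earlier results of these data known. Without WARS and AARS, the first set had a median of -0.05. In RCC2 KO the medians were -0.02 and 0.04.

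The split was also examined in promoters, for which RefSeq (GRCh38.p14) gave windows of 250 bases before to 50 after a start site for 33 of the 39 members. TGATGNAA, the core of the C/EBP-ATF response element through which ATF4 acts, was searched on both strands. It occurred in 7 of the 10 ATF4-responsive cytosolic enzymes with a window, in none of 6 other cytosolic enzymes, in none of the 3 scaffold genes and in 1 of 14 mitochondrial enzymes (YARS2). Of all 27305 symbols with a window, 4.46% held it, and of all windows 3.62%. Several genes have more than 1 window, so a gene counts once if any of them holds the letters. The 10 ATF4-responsive enzymes had 15 windows and the 6 others had 6, so the lengths searched were not equal. By window, 7 of 15 (46.7%) and none of 6 held it. The first set was named for its response to ATF4, so these matches are not independent of the split.
The 7 cytosolic matches are shown on the strand of the gene, with the match in capitals, because the letters recur while the changes of these genes did not go 1 way.
AARS: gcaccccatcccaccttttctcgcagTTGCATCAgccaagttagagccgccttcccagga
CARS: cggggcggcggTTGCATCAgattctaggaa
GARS: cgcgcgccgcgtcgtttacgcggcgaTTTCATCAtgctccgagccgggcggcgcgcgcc
IARS: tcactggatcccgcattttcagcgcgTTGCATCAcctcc
MARS: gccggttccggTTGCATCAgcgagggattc
NARS: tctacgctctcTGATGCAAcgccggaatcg
TARS: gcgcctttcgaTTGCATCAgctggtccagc

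They lie at chr16:70289660-70289719 (AARS, minus strand), chr11:3057407-3057436 (CARS, minus), chr7:30594819-30594877 (GARS, plus), chr9:92293698-92293736 (IARS, minus), chr12:57488053-57488082 (MARS, plus), chr18:57621804-57621833 (NARS, minus) and chr5:33440956-33440985 (TARS, plus). In 5 of the 7 the gene strand reads TTGCATCA. In AARS the match begins at position -187 from the start site, and in the other 6 it lies within 33 bases of it. In the libraries labelled CD24 KO, AARS was called higher, whereas TARS, GARS and CARS were at 0.29, 0.10 and 0.05 and MARS, IARS and NARS at -0.15, -0.26 and -0.33. WARS and SARS, at 1.02 and 0.50, had no match in their windows. A match is a description of the letters and not a measured site. The CREB/ATF core TGACGTCA occurred in 1 member, AIMP2, against 2.25% of all symbols. The E-box CACGTG occurred in 5 of 33 members (IARS, AIMP2, MARS2, CARS2 and EARS2), or 15.2%, against 8.77% of all symbols.

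The 34 listed genes of the ATF4 amino acid response were mostly higher in the column labelled CD24 KO. There, 25 were higher and 9 lower, 10 were called higher and 2 lower, where 9.55% and 11.6% of all genes were called, and the median log2 change was 0.27 against -0.03 for all genes compared. The 2 called lower were 1 with a pseudocount of 5, median centring, quantile normalization or the GC and length correction. Earlier results of these data had shown this direction, so it is not independent support. NUPR1, a stress-induced chromatin protein, was at 6.50 FPKM in Scr, 63.0 in CD24 KO and 9.67 in RCC2 KO, a log2 change of 3.09. DDIT3, CEBPB and CHAC1, a pair of transcription factors and a glutathione-degrading enzyme, had changes of 1.28, 1.09 and 1.09. ATF5, another transcription factor of this response, was lower at 20.6, 4.80 and 19.3 FPKM, a change of -1.90, and CBS, of cystathionine synthesis, was at -0.61. ATF4 itself was at 175, 214 and 172 FPKM, a change of 0.29 in CD24 KO, and ASNS, the asparagine synthetase gene that ATF4 is known for, was at -0.04. In RCC2 KO the median was 0.02 and SLC7A11, the cystine transporter, was the only gene called, at 0.64, and with a pseudocount of 5 none was.

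Other genes of tRNA charging, processing and delivery were lower more often than higher in the same libraries. Of 27 genes, 20 were lower and 5 called lower in CD24 KO, where 52.9% of all genes were lower and 11.6% called lower, none were called higher, and the median was -0.22. The number lower was 16 with median centring and 15 under quantile normalization, and the median was -0.095 with a pseudocount of 5 and -0.11 under quantile normalization. With a pseudocount of 0.1, median centring, quantile normalization or the GC and length correction, 1 gene was called higher. The genes called lower were 3 with a pseudocount of 5 or quantile normalization, and 4 with the GC and length correction. POP1 and ELAC2, which trim the ends of tRNA precursors, were at -0.97 and -0.94. XPO5, an exporter of small RNAs, was at -0.82 and TUFM, which brings charged tRNA to the mitochondrial ribosome, at -0.65. In RCC2 KO none of the 27 genes was called, and with a pseudocount of 0.1, 1 was called lower.
Of 9 genes around the eIF2 kinases, EIF2AK1 was the only one called in CD24 KO, where 9.55% of all genes were called higher and 11.6% lower. None was called with the GC and length correction, and 2 were called with a pseudocount of 0.1, median centring or quantile normalization. EIF2AK4, the sensor of uncharged tRNA, was at 28.8, 25.7 and 29.2 FPKM.

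**Figure D4:**
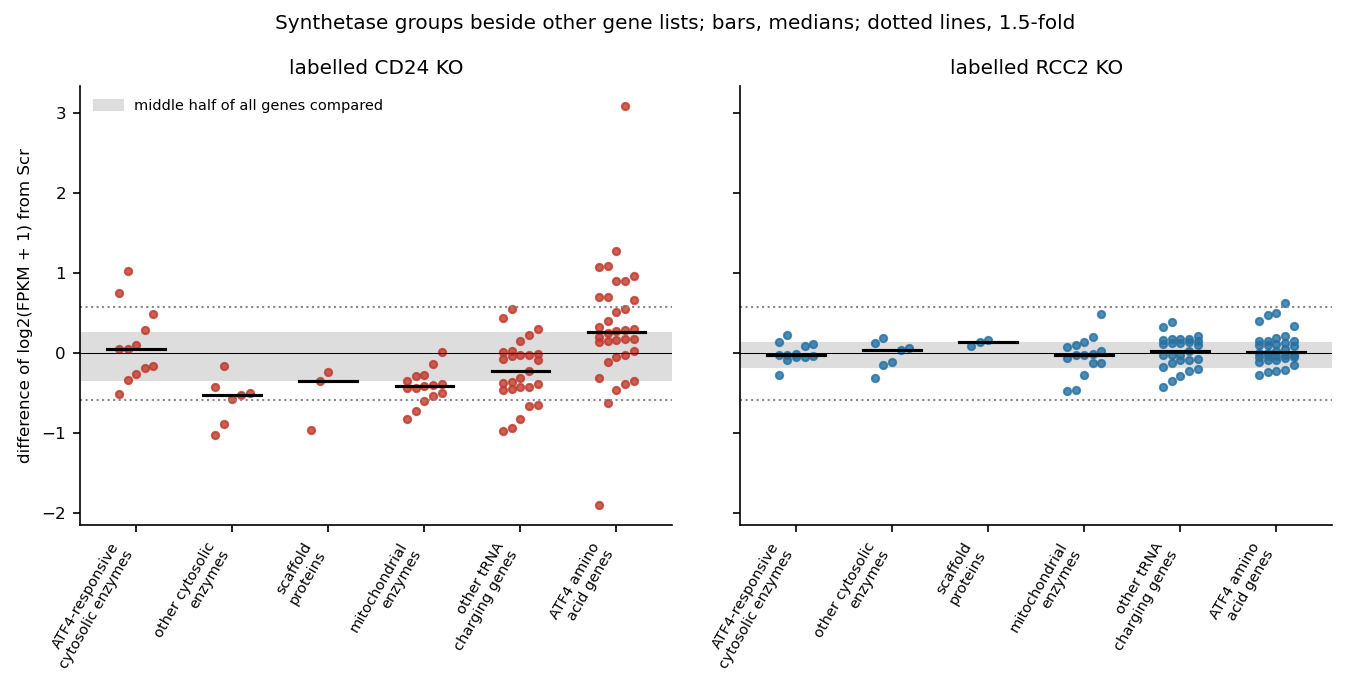
Difference of log2(FPKM + 1) from Scr for single genes (points) in the synthetase groups and the other lists, in the libraries labelled CD24 KO (left) and RCC2 KO (right); black bars are medians, the grey band runs from the lower to the upper quartile of all genes compared and dotted lines mark 1.5-fold. On the left the other cytosolic and the mitochondrial enzymes have medians of -0.53 and -0.41 while the ATF4 amino acid genes have one of 0.27, and on the right all medians lie between -0.02 and 0.15.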

How the data were processed

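RNA from 6 DU145 libraries was sequenced, and the authors deposited 1 table of FPKM with 3 columns, 1 per condition. The submitters' processing notes name HISAT, StringTie, Cufflinks and GATK without roles. The genome build is not given in the sources used here. Of the 39 members, 8 overlapped their GRCh38 position, so table coordinates are of another build and were not mixed with GRCh38. Table starts were raised by 1, because lengths of 3677 genes fitted starts counted from 0 and 444 fitted starts counted from 1.

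Values were used as deposited, as log2(FPKM + 1), for genes with at least 1 FPKM in at least 1 column. With 1 value per condition the planned limma fit could not be made, and a 1.5-fold minimum replaced it. The 39 members and all gene lists, some written from memory, were chosen with earlier results of these data known. Each member was named, and from other lists up to 4 called genes in each direction. ASNS and genes at shared positions were named after their values were seen. A few listed genes are not reported here by name. GC content and length came from GENCODE 29 (96.2% of genes compared). The calculations were tested on simulated data. No protein sequences were used here. Python 3.11.15, NumPy 2.4.6, pandas 2.3.3 and matplotlib 3.10.9 were used.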

Additional observations from a re-analysis of the deposited data

How the results depend on the processing

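No paired analysis was possible because the table holds no column per library, and for the same reason no replicate could be left out. A median counted as moved at a difference of 0.1 on the log2 scale, since no spread between libraries exists. With a 2-fold minimum, the called cytosolic enzymes were 1 higher and 1 lower in CD24 KO against Scr and 0 in either direction in RCC2 KO against CD24 KO, and the called mitochondrial enzymes were 0 in each comparison. With a pseudocount of 5, the mitochondrial median was -0.28 in CD24 KO, with 0 enzymes called, and 0.25 in RCC2 KO against CD24 KO, the cytosolic minus mitochondrial differences were 0.10 and -0.12, and the other tRNA charging genes had a median of -0.095 in CD24 KO. With a pseudocount of 0.1, 1 mitochondrial enzyme was called lower in RCC2 KO against Scr. In CD24 KO against Scr, quantile normalization gave medians of -0.0093 for cytosolic enzymes, 0.23 for the ATF4-responsive ones, -0.34 for the other cytosolic ones, 0.40 for ATF4 amino acid genes and -0.11 for other tRNA charging genes, and a cytosolic minus mitochondrial difference of 0.42. In RCC2 KO against CD24 KO these values were -0.072, -0.25, 0.40, -0.36, 0.14 and -0.47, with 1 cytosolic enzyme called higher, so the cytosolic median reversed. The correction for GC content and length gave 4 cytosolic enzymes called lower in CD24 KO. Without members that share a table position, an alternative chosen after seeing the data, the cytosolic median in RCC2 KO against CD24 KO was 0.0024. The causes of these shifts were not tested. The mitochondrial enzymes kept 14 of 15 lower in CD24 KO under quantile normalization, median centring and the GC and length correction. Depth is unknown and limits the genes under a few FPKM most.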

Other observations

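Of the 39 members, 18 share their table position with another gene. EPRS and IARS2 share one on chromosome 1 with BPNT1, a nucleotide phosphatase, and their log2 changes in the libraries labelled CD24 KO were 0.06, -0.41 and -0.08. SARS2 shares one with MRPS12, which was at 50.2 FPKM in Scr, 27.6 in CD24 KO and 56.1 in RCC2 KO, a log2 change of -0.84 beside -0.60 for SARS2. EEF1E1 shares one with TXNDC5, a protein disulfide isomerase, at 133 FPKM in Scr, 89.7 in CD24 KO and 132 in RCC2 KO, and with SCARNA27, a small RNA listed at 0 in Scr and RCC2 KO and at 134 FPKM in CD24 KO. AIMP1 shares one with TBCK, which was at 2.61, 4.11 and 2.57 FPKM, a log2 change of 0.50 beside -0.23 for AIMP1. The labels and the paper name different library kits, of which only the paper's is called stranded, so it is unsure whether fragments of overlapping genes on opposite strands could be told apart. How fragments were divided within these positions was not tested.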
